A study of Mus musculus with 2 samples.

Results

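Conventional natural killer (NK) cells of the mouse liver were examined in 2 single-cell RNA libraries, from livers bearing MC38 tumour and from control livers. MC38 is a mouse colon adenocarcinoma line. The cells were chosen on raw unique molecular identifiers (UMIs, counts of captured transcripts). A member had at least 200 genes, at most 20% mitochondrial UMIs and at least 1 UMI of Ncr1 or Klrb1c. It also had at least 1 UMI of Eomes, Klra4 or Klra8, at most 1 UMI summed over Cd3d, Cd3e and Cd3g, and no UMI of Cxcr6, Csf1r, Cd79a or Siglech. The rule found 531 of the 34080 deposited barcodes, 181 of 19822 in the MC38 library and 350 of 14258 in the control library.

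In the MC38 group, C57BL/6 mice received 500000 MC38 cells into the spleen, which drains to the liver, and the spleen was then removed. In the control group, labelled free of tumour, PBS was injected into the spleen. The labels of both groups carry the same protocol, which also lists 3000000 MC38 cells given under the skin. The sources used here do not say if control mice also carried such a tumour, or if their spleens were removed. At day 14, liver mononuclear cells were isolated by density centrifugation, the cells of 3 mice were pooled per group, and each pool gave 1 library, made with a 10x 5' kit according to the labels. There is thus no replicate of either group, no test of a difference can be made, and every difference below is between these 2 libraries. The intervals are exact 95% intervals that cover counting error only.

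NK cells are innate lymphocytes that kill infected or transformed cells by releasing perforin and granzymes and that secrete interferon gamma. Their activity is set by the balance of activating and inhibitory receptors, among them the Ly49 (Klra) family in mice, which binds class I MHC molecules. In the liver, circulating conventional NK cells, which need Eomes, lie beside tissue-resident type 1 innate lymphoid cells (ILC1), which express Cxcr6 and integrin alpha 1. As conventional NK cells mature they lose CD27 and gain CD11b (Itgam) and KLRG1, under the transcription factors T-bet and Zeb2.

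The genes in the rule were by construction present and are described without a test. Levels are in CPM, a gene's UMIs summed over the members of a library per 1000000 UMIs of those members. Ncr1, which encodes the activating receptor NKp46, was at 487 CPM in MC38 members and 726 CPM in control members, and was detected in 85.6% and 96.0% of them. Klrb1c (NK1.1) was at 681 CPM in MC38 members and 719 CPM in control members. Eomes was at 281 CPM in MC38 members and 412 CPM in control members. Klra4 (Ly49D) was at 754 against 1071 CPM and Klra8 (Ly49H) at 476 against 594 CPM, again MC38 against control. All 5 genes had the lower level in MC38 members. The split by the Ly49 pair was nearly the same in both libraries: 39.8% of MC38 and 39.7% of control members had both Klra4 and Klra8, and 17.7% and 17.4% had neither.

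At the edge of the rule, exactly 1 UMI of Ncr1 plus Klrb1c was found in 13 MC38 and 12 control members, and exactly 1 UMI of Eomes, Klra4 and Klra8 together in 16 MC38 and 30 control members. A single Cd3 UMI was carried by 7 MC38 and 24 control members. Just outside, 2 MC38 and 5 control barcodes met everything else but had 2 Cd3 UMIs, 5 and 7 had Cxcr6, and 5 and 35 had 20 to 30% mitochondrial UMIs. A further 66 MC38 and 60 control barcodes carried Ncr1 or Klrb1c and met the other limits without Eomes, Klra4 or Klra8. Conversely, 62 MC38 but 8 control barcodes carried Eomes, Klra4 or Klra8 and met the other limits without Ncr1 or Klrb1c.

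Genes outside the rule matched the label of conventional NK cells. Nkg7, a cytotoxic granule protein, was detected in 98.3% of MC38 and 100% of control members, and Gzma (granzyme A) in 95% and 98.9%. Perforin (Prf1) was found in 64.1% of MC38 and 63.1% of control members, and Tbx21 (T-bet) in 48.6% and 51.7%. Set against all other kept barcodes of its own library, Prf1 was 85.7-fold higher in MC38 members and 35.7-fold higher in control members. The mast cell protease gene Cma1 was at 213 CPM in MC38 members against 0.853 CPM in other MC38 barcodes, and at 321 CPM in control members against 3.57 CPM in other control barcodes. Since these cells were chosen within the same counts, such folds describe the members and test nothing. Markers of other lymphocytes were nearly absent: Cd3e had 0 UMIs in MC38 and 3 in control members, Cd8a 0 and 2, Cd4 0 and 3, and the B cell gene Ms4a1 0 and 7. Itga1, the ILC1 integrin, had 12 UMIs in MC38 and 5 in control members.

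Depth was close between the members of the 2 libraries, but not between their other barcodes. Members held 911423 UMIs in all in the MC38 library and 1752840 in the control library, with a median of 4218 UMIs and 1707 genes per MC38 member and 4174.5 UMIs and 1678.5 genes per control member. Mitochondrial UMIs differed, with a median of 5.75% in MC38 and 8.24% in control members, and genes are therefore also given within strata of this share. The libraries shared 63 barcodes, none of them a member in both. A few very deep barcodes hold a large part of the UMIs of some genes. RNA of other cell types also differed and is described with the genes that it touches.

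Members made up 1.04% of kept barcodes in the MC38 library (interval 0.898 to 1.21%) and 4.33% in the control library (3.90 to 4.79%). Of barcodes with a Ptprc (CD45) UMI they were 1.82% in the MC38 library and 4.74% in the control library. Kept barcodes are those with at least 200 genes and at most 20% mitochondrial UMIs. This mitochondrial limit removed a much larger part of the control barcodes than of the MC38 barcodes, so the totals behind these shares were filtered unequally. With no mitochondrial limit the gap between the libraries was narrower but in the same direction. The share also depends on what else is in the library. Against T cells (587 in MC38, 1951 in control) the order was the other way, since members were 23.6% of members plus T cells in the MC38 library (20.6 to 26.7%) and 15.2% in the control library (13.8 to 16.7%). Against B cells (1990 in MC38, 843 in control) members were 8.34% of members plus B cells in the MC38 library and 29.3% in the control library. T cells were taken as barcodes with at least 2 Cd3 UMIs and no Ncr1. ILC1-like barcodes had Ncr1 or Klrb1c together with Cxcr6, at most 1 Cd3 UMI and no Eomes, Klra4 or Klra8. Of members plus ILC1-like barcodes, members were 82.6% in the MC38 library and 82.5% in the control library. A share of recovered barcodes does not give the number of cells in a liver.

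Of 5900 genes with at least 50 UMIs over both groups of members, 177 (3%) were at least 2-fold higher in MC38 members and 116 (1.97%) at least 2-fold lower. The median log2 ratio of MC38 over control was −0.07. A gene counted in a list as higher or lower is one past this 2-fold limit, which is a size and not a test. With the limit on UMIs set at 20 for the genes of the lists, 390 of 8310 genes (4.69%) were at least 2-fold higher and 341 (4.1%) at least 2-fold lower. Of these 8310 genes 55.7% had a log2 ratio below 0 and 44.3% above. The lists of genes were chosen with earlier results of these data known.

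Most genes of mature NK cells had the lower level in MC38 members. Of 21 such genes, all measured, none was higher, 4 were lower, 18 had a ratio below 0, and the median log2 ratio was −0.52, against −0.06 over all genes with at least 20 UMIs. The 4 were Ly6c2, Zeb2, Itgb2 and S1pr5.

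Zeb2, the zinc finger repressor required for terminal NK maturation (chr2:44983632-45117395, minus strand, GRCm38), was at 216 CPM in MC38 members and 544 CPM in control members, a log2 ratio of −1.33 (−1.56 to −1.11). It was detected in 47.5% of MC38 and 76.9% of control members. With each barcode thinned to 1000 UMIs, which left out 4 MC38 and 3 control members, the shares were 20.9% (15.2 to 27.6%) and 42.7% (37.4 to 48.0%), while in B cells of the same libraries, barcodes with at least 2 Cd79a UMIs and no Cd3, Ncr1 or Klrb1c UMI, they were 9.68% and 10.1%. The 2 intervals of the members did not overlap at equal depth, and the 2 shares of the B cells lay close together. With 1 library per group, a Zeb2 difference between the groups cannot be told apart from one between the libraries. Over all other kept barcodes Zeb2 was at 436 CPM in the MC38 and 334 CPM in the control library.

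Itgb2, the shared beta chain of the leukocyte integrins LFA-1 and Mac-1 (chr10:77530252-77565708), was at 260 CPM in MC38 members and 543 CPM in control members (log2 ratio −1.06, −1.27 to −0.86). Thinned, it was detected in 27.7% of MC38 and 45.5% of control members, and in 3.38% of MC38 and 4.65% of control B cells. Its partner Itgam, the CD11b chain of Mac-1 (chr7:128062640-128118491), was at 96.6 CPM in MC38 members and 192 CPM in control members (log2 ratio −0.99, −1.35 to −0.65), just inside the 2-fold limit. Both chains of Mac-1 therefore had their lower level in the MC38 library.

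S1pr5, the sphingosine-1-phosphate receptor that lets mature NK cells leave marrow and lymph nodes (chr9:21242912-21248443), was at 66.9 CPM in MC38 members and 137 CPM in control members (log2 ratio −1.04, −1.47 to −0.63). Ly6c2 was at 238 CPM in MC38 members and 640 CPM in control members (log2 ratio −1.43, −1.64 to −1.22). Ly6c2 is also a monocyte gene and has a close copy, Ly6c1, with which reads may have been shared, so its level is uncertain. Klrg1, an inhibitory receptor of terminally mature cells (chr6:122270596-122282882), was at 102 CPM in MC38 members and 197 CPM in control members (log2 ratio −0.95, −1.29 to −0.61), but after thinning it was found in 13.6% and 14.7% of members.

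Other genes of the list differed little. The fractalkine receptor Cx3cr1, a marker of the most mature circulating cells, was at 57.0 CPM in MC38 members and 65.6 CPM in control members (log2 ratio −0.20, −0.70 to 0.28), an interval that includes 0. Gimap4, a lymphocyte survival GTPase, ran the other way, at 870 CPM in MC38 members and 639 CPM in control members. The lower level was therefore not common to every maturity gene.

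**Figure D1:**
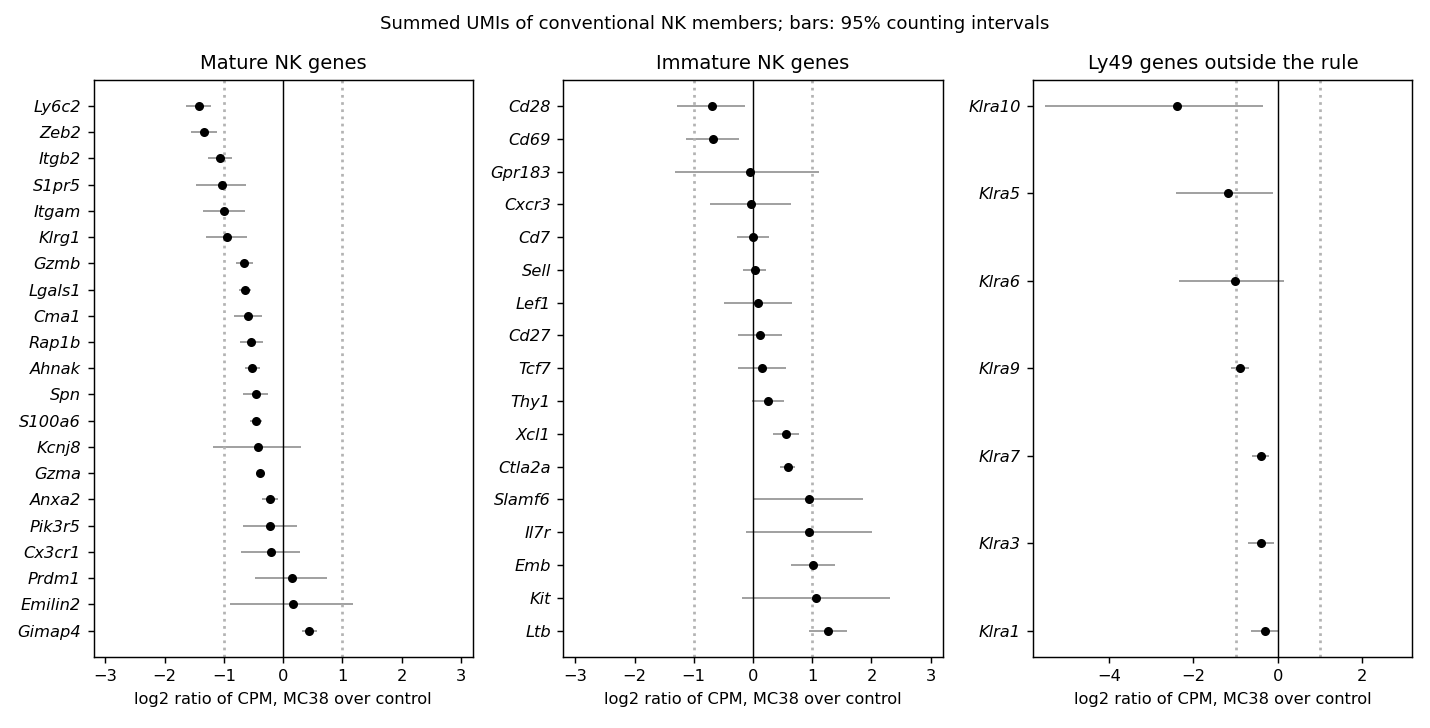
Log2 ratio of MC38 members over control members, one point per gene, for genes of the lists on NK maturation, immaturity and Ly49 receptors; bars are exact 95% intervals for counting error, and the dotted lines mark the 2-fold limit. Of the mature genes, 18 of 21 lie below 0, and all 7 measured Ly49 genes outside the rule lie below 0.

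Genes of immature NK cells leaned the other way. All 17 were measured, of which 3 were higher (Ltb, Emb and, on 13 and 12 UMIs, Kit), none was lower and 12 had a ratio above 0, with a median log2 ratio of 0.16. Ltb, encoding lymphotoxin beta (chr17:35194439-35196320), was at 201 CPM in MC38 members and 83.9 CPM in control members (log2 ratio 1.26, 0.94 to 1.58). Emb, the cell surface protein embigin, was at 138 CPM in MC38 members and 68.5 CPM in control members (log2 ratio 1.01, 0.64 to 1.39), and after thinning in 9.60% and 3.17% of them; in both libraries it was at a greater level in the other barcodes, 315 CPM in MC38 and 158 CPM in control. The chemokine Xcl1 was at 327 CPM in MC38 members and 222 CPM in control members (log2 ratio 0.56, 0.33 to 0.78). After thinning it was found in 11.9% of MC38 and 10.4% of control members. Its log2 ratio was 1.06 among members with at most 5% mitochondrial UMIs. It was 0.17 (−0.18 to 0.51) at 5 to 10% and −0.09 (−0.72 to 0.50) at 10 to 20%. Cd27, the classic marker of the immature stages, was at 103 CPM in MC38 members and 94.7 CPM in control members, and its log2 ratio of 0.12 (−0.26 to 0.50) did not exceed counting error.

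Counted per cell, the libraries differed in the median while their members overlapped. At equal depth the median member had 7 UMIs of mature genes (Gzma and Gzmb left aside) in the MC38 library and 10 in the control library. The 10th to 90th percentile ran from 3 to 12 UMIs in MC38 members and from 4 to 18 in control members. For immature genes the medians were 2 UMIs in MC38 and 1 in control members, with ranges over the same percentiles of 0 to 6 and 0 to 5. The values of both libraries shared most of their range, with more control members at the high end of the mature genes.

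**Figure D2:**
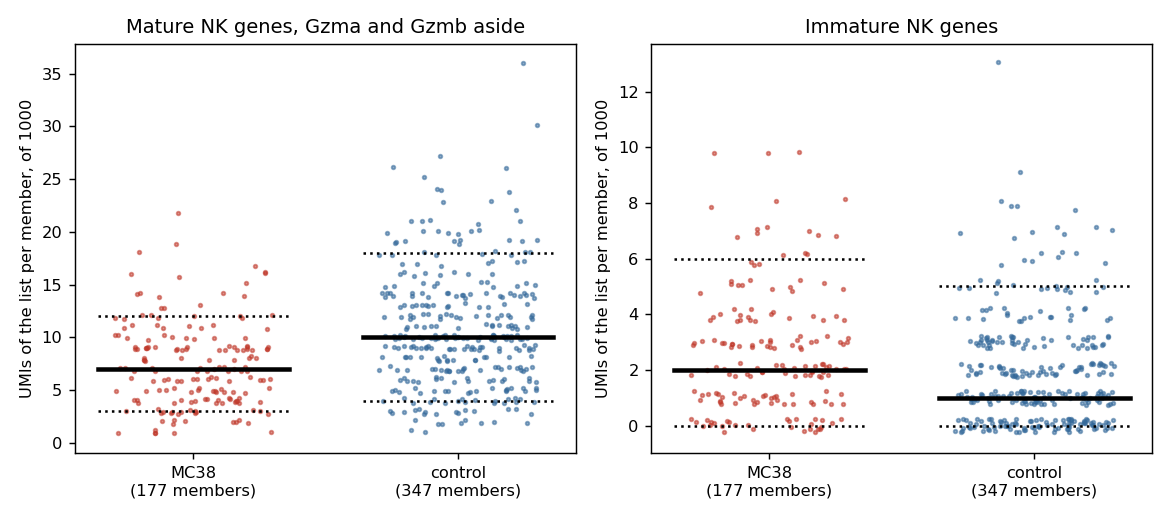
UMIs per member after thinning each barcode to the same total, summed over mature genes without Gzma and Gzmb and over immature genes, for 177 MC38 members and 347 control members. The median for mature genes is 7 UMIs in MC38 members and 10 in control members, and the distributions overlap.

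Of the Ly49 genes that the rule did not use, 7 were measured, all with a ratio below 0 and 3 of them, all with few UMIs, past the 2-fold limit (Klra10, Klra5 and Klra6), with a median log2 ratio of −0.90. Klra9 (Ly49I, chr6:130178675-130193112), an inhibitory receptor, was at 252 CPM in MC38 members and 470 CPM in control members (log2 ratio −0.90, −1.11 to −0.68). Klra7 (Ly49G) was at 341 CPM in MC38 members and 452 CPM in control members (log2 ratio −0.41), and Klra3 (Ly49C) at 133 and 173 CPM (−0.39). Klra1 was at 116 CPM in MC38 members and 143 CPM in control members (log2 ratio −0.30, −0.64 to 0.03), within counting error. Klra10 had 2 UMIs in MC38 and 20 in control members. The Ly49 genes measured here lie within chr6:129898996-130386874 on the minus strand and are close copies of each other, so reads may be divided among them and the single-gene values are uncertain.

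Among the other inhibitory receptors, 9 of 17 were measured, with 2 higher and none lower and a median log2 ratio of −0.18. Klre1, a lectin-like receptor with which inhibitory and activating partners pair (chr6:129577905-129585827), was at 485 CPM in MC38 members and 853 CPM in control members (log2 ratio −0.82, −0.97 to −0.66). Lilrb4a, an inhibitory immunoglobulin-like receptor also made by myeloid cells, was at 40.6 CPM in MC38 members and 8.56 CPM in control members, below the other barcodes of the same libraries at 144 and 52.6 CPM. The checkpoint receptor Lag3 had only 14 UMIs in MC38 and 8 in control members (log2 ratio 1.75, 0.40 to 3.21). Pdcd1 and Tigit had under 10 UMIs in all, and Havcr2 had 1 UMI in MC38 and 9 in control members, so a difference in these checkpoint genes was not detectable at this depth.

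Activating receptors and adhesion partners had a median log2 ratio of −0.26 over 20 genes, with none higher and 2 lower, Cd226 and Itgb2. Cd226 (DNAM-1), which recognizes stress ligands on tumour cells, was at 16.5 CPM in MC38 members and 37.6 CPM in control members (log2 ratio −1.19). Klrk1 (NKG2D) was at 884 CPM in MC38 members and 1069 CPM in control members, a log2 ratio of −0.27. Klrd1 (CD94), the partner of the NKG2 chains, was at 659 CPM in MC38 members and 962 CPM in control members (log2 ratio −0.54, −0.68 to −0.41). Genes for entry into and movement through tissue had a median of −0.33 over 21 genes, 18 of them below 0, with 1 higher and 2 lower. The integrin alpha 4 gene Itga4 was at 434 CPM in MC38 members and 640 CPM in control members. The 1 higher gene, Ccr7, had 36 UMIs in MC38 and 6 in control members, and a single MC38 barcode held 66.7% of the 36.

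The killing machinery differed less. Over 23 cytotoxic genes the median log2 ratio was −0.09, with none higher and 6 lower. Gzma was at 9042 CPM in MC38 members and 11797 CPM in control members (log2 ratio −0.38, −0.42 to −0.35), and the median member had 10.8 Gzma UMIs per 1000 in the MC38 library and 12.9 in the control library. Prf1 was at 263 CPM in MC38 members and 288 CPM in control members (log2 ratio −0.13, −0.36 to 0.09), within counting error. Members with at most 5% mitochondrial UMIs, 69 in MC38 and 42 in control, had −0.60 with an upper bound of −0.20. The strata of 5 to 10% and 10 to 20% had −0.31 and 0.16, with intervals that include 0. Over all control members, 1 barcode held 6.93% of the Prf1 UMIs. Fasl, the death ligand, was at 117 CPM in MC38 members and 103 CPM in control members (log2 ratio 0.19, −0.17 to 0.54), also within counting error.

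Of the 6 lower cytotoxic genes, 5 were a cluster of late granzymes that rest on 1 cell. Gzmc was at 83.4 CPM in MC38 members and 855 CPM in control members, but 1491 of its 1499 control UMIs came from a single barcode of 37969 UMIs and 4590 genes. In the MC38 library 8 members held 76 Gzmc UMIs, with at most 25 in 1 barcode. Without the single control barcode the order for Gzmc would therefore turn, with the greater level in MC38 members. The same control barcode held 1298 of 1299 control UMIs of Gzmd and all of those of Gzme, Gzmf and Gzmg, which are close copies. Gzmb (granzyme B) was at 600 CPM in MC38 members and 945 CPM in control members, a log2 ratio of −0.65 that was −0.25 without this barcode. The sixth gene, Gzmm (granzyme M), was at 6.58 CPM in MC38 members and 20.5 CPM in control members.

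The secreted factors of NK cells differed in their order. The chemokine gene Ccl5 was at 12837 CPM in MC38 members and 13595 CPM in control members, and Ifng was at 111 and 137 CPM (log2 ratio −0.31, −0.66 to 0.04). Over the strata of the mitochondrial share, from lowest to highest, the Ifng log2 ratio was 0.55, −1.37 and −0.02, so its sign was not stable. Ccl4, a chemokine made on activation, was at 545 CPM in MC38 members and 312 CPM in control members (log2 ratio 0.81, 0.63 to 0.98). It was detected in 37.0% of MC38 and 41.7% of control members, and 1 MC38 barcode held 18.3% of its MC38 UMIs. The Ccl4 direction was not uniform: among members with 10 to 20% mitochondrial UMIs it was at 113 CPM in MC38 and 290 CPM in control members (log2 ratio −1.35, −2.14 to −0.65).

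Of 28 genes of cytokine receptors and JAK-STAT signalling, 4 were higher (Cish, Socs2, Il4ra and Socs1) and 1 was lower (Tgfbr1), with a median log2 ratio of 0.10. Cish, which encodes a STAT5-induced inhibitor of interleukin-15 signalling (chr9:107296026-107302784), was at 59.2 CPM in MC38 members and 13.1 CPM in control members (log2 ratio 2.17, 1.45 to 2.95). It was detected in 20.4% of MC38 and 6.29% of control members. The related inhibitor Socs1 was at 83.4 CPM in MC38 members and 41.1 CPM in control members (log2 ratio 1.02, 0.54 to 1.51). Socs3, of the same family, was at 19.7 CPM in MC38 members and 20.5 CPM in control members (log2 ratio −0.06, −0.96 to 0.80), within counting error.

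Il2rb, the shared beta chain of the interleukin-2 and interleukin-15 receptors, was at 578 CPM in MC38 members and 398 CPM in control members (log2 ratio 0.54, 0.37 to 0.71), below the 2-fold limit. The anti-apoptotic gene Bcl2 was at 674 CPM in MC38 members and 407 CPM in control members (log2 ratio 0.73, 0.57 to 0.89). Its pro-apoptotic antagonist Bcl2l11 (BIM) was also at the greater level in MC38 members, 191 CPM against 96.4 CPM in control members (log2 ratio 0.99, 0.67 to 1.30). Over 20 survival genes the median was 0.17, with 2 higher and none lower, and Mcl1 had a ratio of −0.31.

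Transcription factors of the NK lineage had a median of −0.21 over 22 genes, 1 higher and 1 lower. Tbx21 (T-bet) was at 163 CPM in MC38 members and 171 CPM in control members (log2 ratio −0.07, −0.36 to 0.22), within counting error, while Zeb2 was the 1 lower gene. The sign of Tbx21 was not stable over the strata of the mitochondrial share. Its log2 ratio was 0.88 (0.22 to 1.58) at up to 5%. It was −0.42 at 5 to 10% and −0.39 at 10 to 20%, with intervals that include 0. Klf2, which keeps lymphocytes quiescent and circulating, was at 560 CPM in MC38 members and 930 CPM in control members (log2 ratio −0.73). After thinning Klf2 was found in 50.3% of MC38 and 60.8% of control members. The lower share in MC38 was also present in B cells, 54.1% and 67.2%, but not in T cells, 28.8% and 25.7%. Nfil3, needed early in NK development, was the higher one, at 51.6 CPM in MC38 members and 21.7 CPM in control members (log2 ratio 1.25, 0.60 to 1.91). Irf8 was at 1061 CPM in MC38 members and 690 CPM in control members (log2 ratio 0.62, 0.50 to 0.74), but at 10 to 20% mitochondrial UMIs its log2 ratio was −0.02.

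Targets of transforming growth factor beta, which can move NK cells towards an ILC1 state, had a median of 0.09 over 11 genes, 1 higher and 1 lower. The higher gene was Pmepa1, a feedback inhibitor of the pathway (chr2:173224458-173276533), with 47 UMIs in MC38 and 8 in control members, 51.6 against 4.56 CPM (log2 ratio 3.50, 2.40 to 4.79). It was detected in 17.7% of MC38 and 2.29% of control members, and in more MC38 than control cells also among T cells, 25.4% and 11.3%, and B cells, 5.98% and 2.73%. At equal depth, 5 of 177 MC38 members and 0 of 347 control members had it, which rests on few UMIs. Smad7 was at 81.2 CPM in MC38 members and 55.3 CPM in control members. Of 22 genes of ILC1 and tissue residence, 15 were measured, 4 were higher (Ltb, Itgb3, Tmem176b and Tmem176a) and none was lower; their median of 0.36 was −0.39 at 10 to 20% mitochondrial UMIs.

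Glycolysis genes had a median of 0.22 over 25 genes, with 2 higher and 1 lower. Gapdh was at 845 CPM in MC38 members and 552 CPM in control members (log2 ratio 0.61, 0.48 to 0.75), and Ldha, which makes lactate, at 441 and 290 CPM. The median was −0.29 over 26 type I interferon genes, 1 higher and 2 lower, but 0.30 among members with at most 5% mitochondrial UMIs. It was 0.10 over 22 interferon gamma genes, 2 higher and none lower. Of 22 class I MHC genes, none was higher and 2 were lower. These were Tap2, a subunit of the peptide transporter, at 29.6 CPM in MC38 members and 79.3 CPM in control members, and the Qa-1 gene H2-T23, at 66.9 and 144 CPM. The other barcodes of the libraries had a like gap in both genes, Tap2 at 31.8 CPM in MC38 and 76.8 CPM in control and H2-T23 at 67.9 and 202 CPM.

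Stress and stimulus lists were mixed. Of 13 measured glucocorticoid response genes, 5 were higher, among them Mt1, Mt2 and Ddit4, and 1 was lower, the kinase gene Sgk1, with 12 UMIs in MC38 and 60 in control members. Their median log2 ratio of 0.30 includes Mt1 and Mt2, which were at greater levels in the other barcodes of the MC38 library than in its members. Of 29 immediate-early genes 1 was higher and 1 lower (median −0.13), and of 10 measured genes linked to NR4A factors and exhaustion 2 were higher, Nr4a3 and Lag3, and 1 lower, Nr4a1 (median 0.14). Of 28 chaperone genes the 2 lower were Hspa1a and Hspa1b, heat shock genes that are near-identical copies, with 0 UMIs each in MC38 members and 39 and 41 in control members. None of 18 genes of nutrient uptake and growth was past the 2-fold limit.

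Genes of the cell cycle had the lower level in MC38 members, but a few cells carry them. Of 34 measured genes, 12 were lower, none was higher and 32 had a ratio below 0, with a median of −0.71. Hmgb2, a chromatin protein of dividing cells, was at 166 CPM in MC38 members and 538 CPM in control members (log2 ratio −1.70, −1.96 to −1.45) and was detected in 30.4% and 60.6% of them, with 25.2% of its MC38 UMIs in 1 barcode. It was also found in fewer MC38 than control T cells, 45.8% and 67.5%, and B cells, 21% and 32.5%. Mki67 was at 101 CPM in MC38 members and 150 CPM in control members. The barcode with most of the list's UMIs held 30.3% of them in the MC38 library and 10.6% in the control library. That MC38 barcode had 1 Cd3 UMI, and the median was −2.55 over members with none and −1.54 without the deepest member of each library. At least 3 UMIs over 8 cycle genes were found in 5 of 181 MC38 members (2.76%, 0.903 to 6.33%) and in 14 of 350 control members (4%, 2.2 to 6.62%), and these intervals overlap.

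The genes named for the greatest excess in MC38 members had a still greater level in the other barcodes of that library. Whether the members made this RNA themselves was not tested. By the naming rule, which took 15 genes in each direction by the end of the interval nearest 0, the higher genes included Mt1, Orm1, Arg1, Pck1 and Fbp1, which hepatocytes or myeloid cells express. Mt1 (metallothionein) was at 772 CPM in MC38 members and 11.4 CPM in control members, and in the other barcodes of the same libraries at 1822 and 35.1 CPM. Of the 177 higher genes, 153 had a lower level in MC38 members than in the other barcodes of that library, as had all 15 named ones. Of the 116 lower genes, 19 were below the other control barcodes.

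The summed level of 21 hepatocyte genes was 2946 CPM in MC38 members and 325 CPM in control members, 20 of the 21 being detected in each. In T cells the sum was 2288 and 448 CPM and in B cells 3922 and 407 CPM, so the MC38 sum was above the control sum in all 3 sets. Alb, the albumin gene, had a UMI in 52.5% of MC38 and 22% of control members, and in 49.5% and 33.0% of B cells. Erythroid genes summed to 2864 CPM in MC38 members and 181 CPM in control members, and a single MC38 barcode of 5419 UMIs held 1619 of the 1705 UMIs of Hbb-bs. Over 16 myeloid genes, all detected in both libraries, the sum was 2156 CPM in MC38 members and 1734 CPM in control members, and the neutrophil genes summed to 63.6 and 6.85 CPM. Sums over the T cell list, 892 CPM in MC38 members and 866 CPM in control members, and over the B cell list, 1074 and 868 CPM, lay closer together. Endothelial, platelet, basophil, plasmacytoid dendritic and ILC2 lists each summed to at most 109 CPM in MC38 members and 140 CPM in control members. What part this RNA had in the other differences was not tested.

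Among genes whose level in the members reached that of the other barcodes of the library in which they were higher, 24 of 3640 (0.659%) were at least 2-fold higher and 97 of 3941 (2.46%) at least 2-fold lower in MC38 members. This limit was chosen after the values were seen. The 15 higher genes named within it were Pmepa1, Cish, Serpina3g, Ltb, Gadd45g, Bcl2l11, Ddit4, Ccl4, Nfil3, Bcl2, Socs1, Irf8, Ctla2a, Eef1g and Fam102a. Serpina3g, a protease inhibitor of activated lymphocytes, was at 334 CPM in MC38 members and 124 CPM in control members (log2 ratio 1.42, 1.17 to 1.68). Ddit4, a stress-induced inhibitor of mTORC1, was at 62.5 CPM in MC38 members and 26.2 CPM in control members. Gadd45g was at 103 CPM in MC38 members and 41.6 CPM in control members.

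The lower genes named by the first rule were Hmgb2, Zeb2, Med30, Itgb2, Tap2, Btg2, Klf6, Vim, Rsrp1, H2-T23, Klra9, Klre1, Stmn1, Itgam and Spry2. Vim, the intermediate filament vimentin, was at 584 CPM in MC38 members and 1053 CPM in control members, and Stmn1, a microtubule regulator, at 161 and 305 CPM. A single MC38 barcode held 33.3% of the MC38 UMIs of Stmn1. The antiproliferative gene Btg2 was at 197 CPM in MC38 members and 391 CPM in control members, and in the other barcodes at 157 and 298 CPM. Rsrp1, which encodes an arginine- and serine-rich protein, was at 287 CPM in MC38 members and 538 CPM in control members, and in the other barcodes at 262 and 486 CPM. Klf6, an early response factor, was at 166 CPM in MC38 members and 325 CPM in control members (log2 ratio −0.97), but at 10 to 20% mitochondrial UMIs the log2 ratio was −0.04. In the other barcodes Klf6 was at 188 CPM in MC38 and 289 CPM in control, and after thinning it was found in 11.6% of MC38 and 24.9% of control B cells. For these 3 genes the lower level in MC38 was thus also present outside the NK cells, and not for them alone. In the other barcodes Hmgb2 was at 167 CPM in MC38 and 339 CPM in control, Med30 at 19.7 and 43.0 CPM. Stmn1 was at 93.3 and 141 CPM there, and Itgb2 at 220 and 282 CPM. Of the 15 lower genes named, only Zeb2, Vim and Itgam had the greater level in the other MC38 barcodes. The mix of cell types in these barcodes differed between the libraries.

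**Figure D3:**
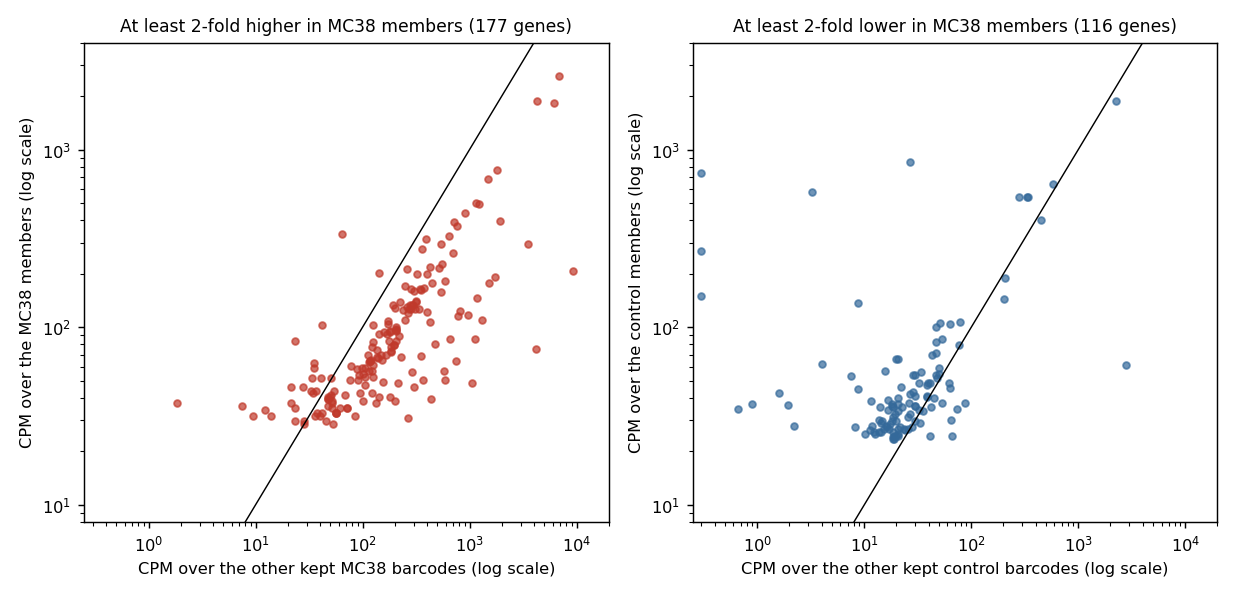
Level in CPM, on log axes, in the members (vertical) and in the other kept barcodes of the same library (horizontal), one point per gene, for the 177 genes at least 2-fold higher in MC38 members, shown at their MC38 levels (left), and the 116 at least 2-fold lower, shown at their control levels (right). The line marks equal levels and the lowest horizontal values are drawn at the left edge; 153 of the 177 points lie below the line on the left, and 19 of the 116 on the right.

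Within strata of the mitochondrial share, the 4 maturity genes Zeb2, Itgb2, Itgam and S1pr5 were below 0 each time, whereas Cx3cr1 was not. From at most 5%, over 5 to 10%, to 10 to 20%, the log2 ratio of Zeb2 was −1.05, −1.70 and −1.15, and that of Itgb2 was −0.73, −1.16 and −1.14. Itgam had −0.75, −1.02 and −1.24, and S1pr5 −0.79, −1.25 and −0.95, while Cx3cr1 had −0.37, 0.097 and −0.29. Bcl2 had 0.91, 0.70 and 0.64, Cish 1.63, 2.51 and 1.73, and Serpina3g 1.44, 1.5 and 1.35. Bcl2l11 had 1.48, 1.24 and 0.19, so its difference was nearly gone in the stratum with the highest share.

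**Figure D4:**
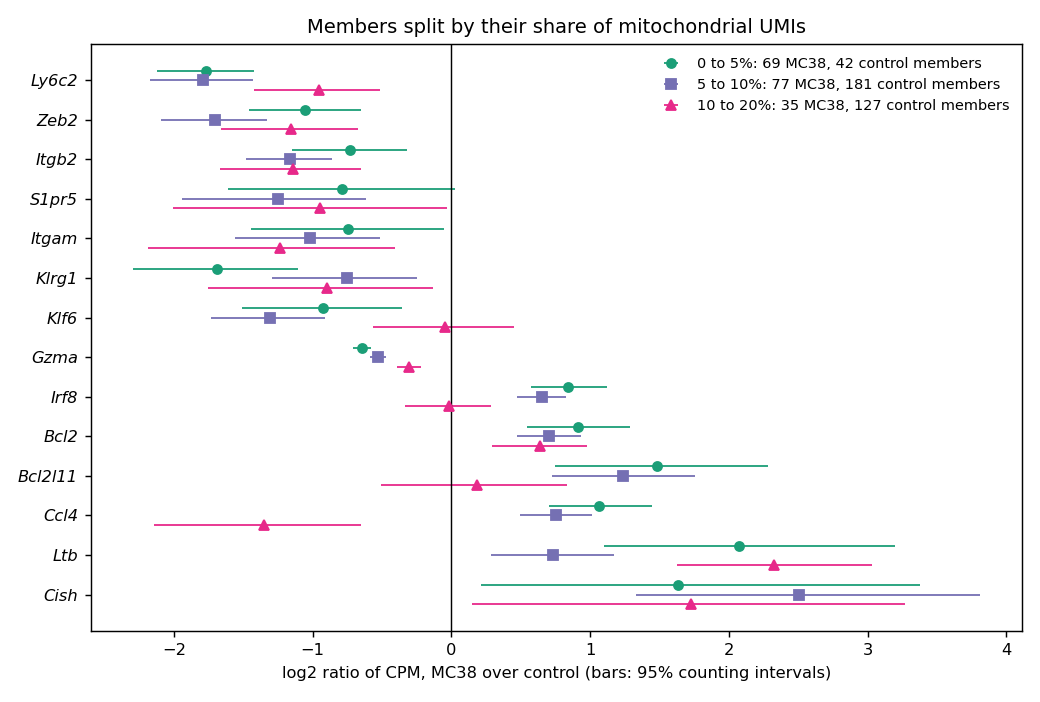
Log2 ratio of MC38 over control members within 3 strata of the mitochondrial share of UMIs, with exact 95% intervals for counting error. Zeb2, Itgb2, Itgam and S1pr5 are below 0 and Bcl2, Cish and Ltb above 0 in each stratum, while Ccl4 changes side at 10 to 20%.

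The same ratios were set beside those of 38 MC38 and 74 control ILC1-like barcodes and of the T cells, which come from the same libraries. The differences between the cell types were not tested. The median over mature NK genes was −0.52 in members, 0.11 in ILC1-like barcodes and 0.13 in T cells. Zeb2 had a log2 ratio of −1.33 in members, −0.58 (−2.22 to 0.85) in ILC1-like barcodes and 0.56 (0.28 to 0.84) in T cells. Itgb2 was below 0 in all 3, at −1.06, −0.53 and −0.74.

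Gzma had opposite signs in the members and the other sets. It was at 9042 CPM in MC38 and 11797 CPM in control members, but at 9441 and 1673 CPM in ILC1-like barcodes (log2 ratio 2.5, 2.37 to 2.62) and at 996 and 310 CPM in T cells (log2 ratio 1.68). Prf1 had log2 ratios of −0.13, 0.78 and 0.94 in members, ILC1-like barcodes and T cells. Inhibitory receptors had a median of −0.18 in members, −0.37 in ILC1-like barcodes and 1.71 in T cells, and Lag3 in T cells was at 79.9 CPM in the MC38 and 7.35 CPM in the control library. Some ratios ran alike: Serpina3g had 1.42 in members, 0.41 in ILC1-like barcodes and 1.42 in T cells, Bcl2 0.73, 0.27 and 0.34, and Cish 2.17, 0.65 and 1.23. The ratio of Ltb was 1.26 in members, 0.34 in ILC1-like barcodes and −0.01 in T cells, and that of Xcl1 was 0.56, −0.79 and −0.67.

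**Figure D5:**
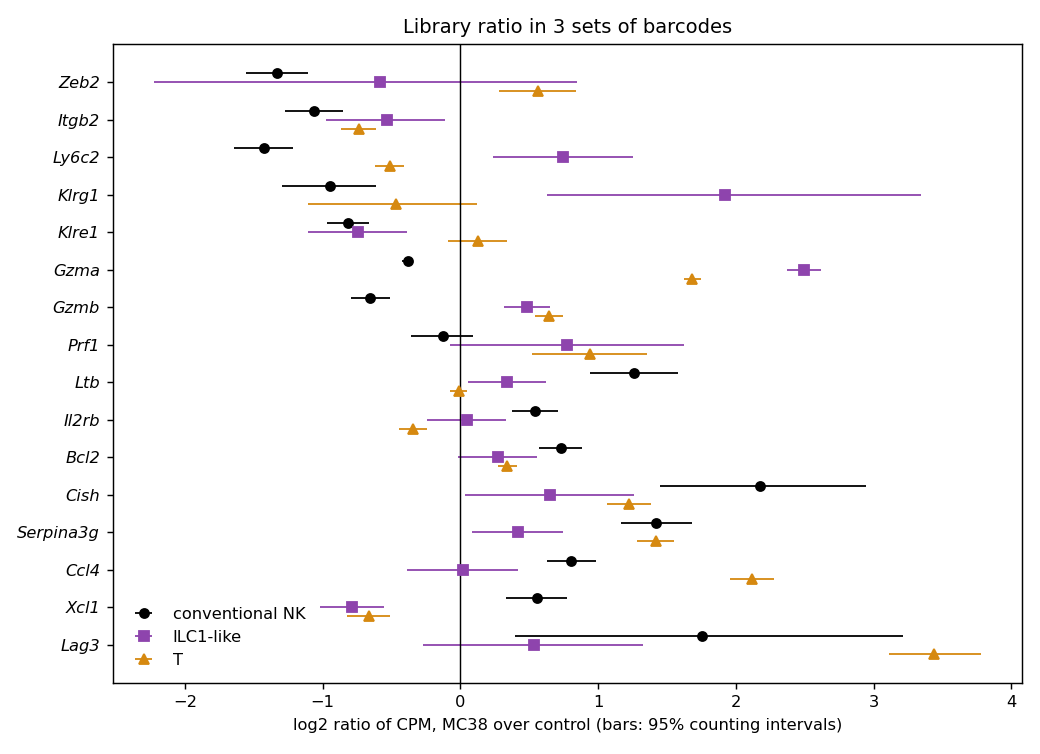
Log2 ratio of MC38 over control for the same genes in NK members, ILC1-like barcodes and T cells, with exact 95% intervals for counting error. Gzma lies at −0.38 in members, 2.5 in ILC1-like barcodes and 1.68 in T cells, and Zeb2 is below 0 in members and above 0 in T cells.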

How the data were processed

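Single-cell UMI counts were analysed in 2 libraries, 1 per group, from the gene by barcode matrices deposited by the authors, which hold whole-number counts that are not normalized. Build GRCm38.p6, R 3.6.0, Seurat 2.3.4, STAR, Cell Ranger 2.2 and bcl2fastq are named in the submitters' processing notes, and software version 3.0.2 in the matrix headers. The kept barcodes held 107655511 UMIs in the MC38 library and 65267486 in the control library. Members were found by the stated rule, their UMIs summed per library, and the 2 sums compared as CPM with exact conditional Poisson intervals at 95%; shares have exact Clopper-Pearson intervals. Intervals cover counting error only, and a gene at 0 was set to a floor of 3 counts over the group for its fold. Lists held 34 sets of genes, 11 of them markers of other cell types. Named genes had at least 50 UMIs, 50 CPM, a UMI in 10% of members and at least 0.25 of the level in other barcodes. Genes of the rule, antigen receptors, ribosomal proteins, mitochondria, haemoglobins and other cell types were left out, and 15 were taken in each direction, with up to 3 per list end and a fixed set of NK genes. Members and lists were chosen with earlier results of these data known. A narrower naming rule and some alternatives were chosen after the values were seen. Detection was compared after thinning to 1000 UMIs. Doublets were not removed in the main values. Scrublet, run per library through scanpy 1.11.5 as an alternative, marked 8.83% of MC38 and 4.36% of control barcodes. Among the members the gap was wider, since it marked 17 of 181 in MC38 and 3 of 350 in control. More than 1% UMIs of other cell types were carried by 24 MC38 and 10 control members. Positions come from GENCODE M21. Python 3.11.15, numpy 2.4.6, scipy 1.17.1, pandas 2.3.3 and matplotlib 3.10.9 were used. The counting intervals were checked on simulated Poisson sums only. These leave out that the UMIs of a gene can gather in a few barcodes, so the check does not show the coverage in these data. No count model was fitted, since a group is 1 library.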

Additional observations from a re-analysis of the deposited data

How the results depend on the processing

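With 1 library per group, no value has a replicate error, and a difference between the groups cannot be told apart from one between the libraries. No paired analysis was possible because each group has 1 library. Over 21 alternatives the median log2 ratio of the mature genes stayed between −0.60 and −0.43, of the immature genes between 0.12 and 0.49 and of the Ly49 genes between −0.93 and −0.32. Zeb2 stayed between −1.70 and −1.05, Itgb2 between −1.19 and −0.73, Klrg1 between −1.69 and −0.34, Cish between 1.63 and 2.51 and Serpina3g between 1.32 and 1.78. Of the list medians that lay away from 0, 7 values under the alternatives turned sign, and medians near 0, such as the cytotoxic one, fell on either side of 0.

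The 177 genes at least 2-fold higher became 390 with a limit of 20 UMIs, 84 with 100 UMIs, 84 with members of at most 1% UMIs of other cell types, 102 without Scrublet calls and 27 with members thinned to 1000 UMIs. They became 55 at a mitochondrial limit of 5% (the members with at most 5%), 94 among members with 5 to 10%, 23 among those with 10 to 20%, and 24 for genes at or above the other barcodes' level. The 116 lower genes became 341 and 40 with limits of 20 and 100 UMIs, 39 at a mitochondrial limit of 5% and 30 when thinned. Fewer members or UMIs leave fewer genes to count. The log2 ratio of the member share of kept barcodes, −2.05, was −1.58 with no mitochondrial limit, −2.48 at a limit of 10%, −2.54 at 5%, −2.47 for members with 5 to 10% and −1.38 over barcodes with a Ptprc UMI.

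The cell cycle median was −2.55 in members with no Cd3 UMI. Among members with 10 to 20% mitochondrial UMIs the medians of the glucocorticoid (−0.35), ILC1 and residence (−0.39) and cytokine and chemokine lists (−0.10) turned sign. In this stratum Klra10 had 0 UMIs in MC38 and 10 in control members. Its value of 0.16 there came from the floor of 3 counts and is not a reversal. With members of at most 5% mitochondrial UMIs, the type I interferon median turned to 0.30. When thinned, the ILC1 and residence median was −0.063 and the nutrient uptake median −0.027. The cause was not tested for any of these medians. Scaling by the median ratio subtracted a median of −0.03 from the log2 ratio of all genes, and scaling without mitochondrial and ribosomal genes added 0.04.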
